A study of Mus musculus with 9 samples.

Results

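The unfolded protein response and the heat shock response were followed through 38 genes that encode their sensors, transcription factors, chaperones and targets, matched by symbol among the 24411 genes counted, and all 38 had a row. The genes were measured by RNA sequencing of ribosome-depleted, strand-specific libraries from primary microglia, the resident macrophages of the brain. The cells came from the brains of 3-day-old pups of the outbred ICR mouse stock, were shaken off mixed glial cultures and plated for 24 h. All 9 libraries are from treated cells: 3 received 1 µM R848, an agonist of the endosomal RNA receptor TLR7, and 3 received 100 U/ml IFN-α, a type I interferon. The other 3 received both at those concentrations, and each treatment lasted 4 h. The last group is called the combined group here. No genetic change is given for any group, and the untreated group named in the study's design is not analysed here. Each value therefore compares treatments with each other, and none compares a treatment with resting cells.

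When misfolded proteins build up in the endoplasmic reticulum (ER), the membrane sensors IRE1 (Ern1), ATF6 and PERK (Eif2ak3) act through the transcription factors XBP1, cleaved ATF6 and ATF4, which raise chaperones, enzymes of disulfide bond formation and the machinery of ER-associated degradation (ERAD). PERK and related kinases also slow translation by phosphorylating eIF2α, and ATF4 with its target CHOP (Ddit3) turns on amino acid metabolism and the phosphatase subunit that restores translation. In the cytosol, heat shock factor 1 controls Hsp70, Hsp90, Hsp40 and small heat shock proteins. In macrophages, Toll-like receptor signalling is known to use parts of these pathways while secreted cytokines are being made.

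The libraries held 2505941 to 6005578 gene counts, of which the 38 genes took 0.361 to 0.496%. Of the 8 genes taken as marks of the stimuli, 4 were higher and 4 lower with R848 than with IFN-α at an adjusted p under 0.05. In the combined group 6 were higher than with R848 and 2 were not called, and all 8 were higher than with IFN-α. Among the 8, Il1b, a cytokine gene induced through Toll-like receptors, stood at 5688 ± 401, 4.97 ± 2.10 and 6092 ± 370.3 CPM (SD, n = 3) in the groups given R848, IFN-α and both. Isg15, an interferon-stimulated gene, stood at 22.2 ± 0.520, 624 ± 21.8 and 1094 ± 41.1 CPM. CPM are counts scaled for library size, here with TMM factors, and group means are given in this order throughout. All 16 listed markers of microglia and macrophages were detected in each group, with summed levels of 4372 to 4993, 6591 to 6955 and 4959 to 5597 CPM, although the resident microglial marker Tmem119 was low at 3.81 ± 0.282, 2.87 ± 1.18 and 0.393 ± 0.403 CPM. Markers of astrocytes were also present: their 11 genes summed to 1693 to 1970, 1320 to 1652 and 2616 to 3661 CPM, none of them at 0. Summed levels of 10 oligodendrocyte-lineage markers ran from 498 to 757 CPM over the 9 libraries, and those of 10 fibroblast and pericyte markers from 271 to 498. Those of 9 neuronal markers ran from 142 to 187, those of 9 endothelial markers from 17.4 to 66.6 and those of 9 markers of other leukocytes from 6.16 to 18.4. All values are therefore those of the whole preparation, in which fewer cells of a type and less RNA per cell cannot be told apart.

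Levels were compared between genes per kilobase of exon, as the mean of the 3 group means. On that scale Calr, a calcium-binding lectin chaperone of the ER, stood highest at 185 CPM per kb, followed by Atf4 at 153, the constitutive cytosolic Hsp70 gene Hspa8 at 144 and the constitutive Hsp90 gene Hsp90ab1 at 127. The IRE1 gene Ern1 was lowest at 0.822 CPM per kb, below the heat-inducible Hsp70 genes Hspa1a at 0.933 and Hspa1b at 1.19. Of the 101-base stretches of Hspa1a and Hspa1b, 56.3% and 49.7% occur in other annotated transcripts, against 0% for Ern1. Reads that could not be placed uniquely are missing from the pair. The exon lengths are from an annotation that may not be the one used for the counts. The counts behind these levels differ widely: Hspa1b had 3 to 31 counts per library, which limits the precision of its values.

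The promoters of some of these genes carry letters to which factors of these responses are known to bind. For 6 genes the promoter is shown, to set it beside the expression values. RefSeq windows from 250 bases before to 50 bases after the start site (GRCm38.p6) matched 32 of the 38 genes, and entries for Atf6, Hsp90aa1, Hsp90ab1, Hspa8, Hyou1 and Manf were not found. Capitals mark matches on either strand to the ER stress element (ERSE, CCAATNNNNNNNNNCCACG, bound by ATF6 and XBP1 with NF-Y), its second form (ERSE-II, ATTGGNCCACG), the C/EBP-ATF composite element read by ATF4 (CARE, TTGCATCA) and the CCAAT box (CCAAT), which both ER stress elements contain. A match on the opposite strand reads as the reverse complement, for example ATTGG for the CCAAT box. Herpud1, Chac1, Sdf2l1 and Hspa1b are shown because each had the largest called change among matched genes of its role. Hspa5 and Calr, chosen after their values were seen, are shown because both have an ERSE and their levels differed in behaviour.
Herpud1 (chr8:94386179-94386478, + strand): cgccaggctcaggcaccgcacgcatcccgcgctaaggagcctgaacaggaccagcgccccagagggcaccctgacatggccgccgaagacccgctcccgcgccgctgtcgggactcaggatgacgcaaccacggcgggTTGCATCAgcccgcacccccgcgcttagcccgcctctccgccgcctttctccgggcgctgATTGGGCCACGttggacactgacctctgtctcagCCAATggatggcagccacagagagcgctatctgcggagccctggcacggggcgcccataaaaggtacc
Chac1 (chr2:119350992-119351291, + strand): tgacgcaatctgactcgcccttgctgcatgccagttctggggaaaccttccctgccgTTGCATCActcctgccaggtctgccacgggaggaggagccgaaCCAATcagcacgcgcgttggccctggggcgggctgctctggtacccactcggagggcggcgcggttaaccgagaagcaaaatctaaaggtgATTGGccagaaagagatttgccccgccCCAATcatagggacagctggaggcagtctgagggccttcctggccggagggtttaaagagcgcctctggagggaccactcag
Hspa5 (chr2:34771840-34772139, + strand): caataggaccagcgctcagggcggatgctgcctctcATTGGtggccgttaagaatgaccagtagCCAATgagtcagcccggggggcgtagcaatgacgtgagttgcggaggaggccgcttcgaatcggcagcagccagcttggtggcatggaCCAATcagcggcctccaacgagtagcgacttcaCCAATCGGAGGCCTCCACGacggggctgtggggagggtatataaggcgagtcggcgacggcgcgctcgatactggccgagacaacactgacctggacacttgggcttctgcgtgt
Calr (chr8:84846882-84847181, - strand): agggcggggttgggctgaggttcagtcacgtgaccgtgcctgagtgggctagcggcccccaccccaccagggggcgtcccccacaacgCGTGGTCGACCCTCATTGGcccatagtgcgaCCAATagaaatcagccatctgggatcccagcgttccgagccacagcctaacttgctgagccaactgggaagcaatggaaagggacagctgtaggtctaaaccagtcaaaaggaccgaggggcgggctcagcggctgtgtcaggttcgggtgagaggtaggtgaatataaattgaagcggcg
Sdf2l1 (chr16:17132334-17132633, - strand): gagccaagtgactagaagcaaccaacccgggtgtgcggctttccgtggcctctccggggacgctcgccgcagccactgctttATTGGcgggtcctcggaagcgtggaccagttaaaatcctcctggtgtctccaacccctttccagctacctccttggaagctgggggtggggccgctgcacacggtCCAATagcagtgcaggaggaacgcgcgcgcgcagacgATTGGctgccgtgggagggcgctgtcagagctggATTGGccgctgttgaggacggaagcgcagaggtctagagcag
Hspa1b (chr17:34959189-34959488, - strand): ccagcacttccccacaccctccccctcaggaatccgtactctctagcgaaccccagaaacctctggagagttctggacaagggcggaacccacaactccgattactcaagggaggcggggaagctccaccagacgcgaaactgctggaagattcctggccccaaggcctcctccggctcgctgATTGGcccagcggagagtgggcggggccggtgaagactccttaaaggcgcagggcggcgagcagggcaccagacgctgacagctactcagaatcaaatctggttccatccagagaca

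In these windows, Herpud1 held an ERSE-II at -52 from the start site and a CARE at -112, Chac1 held a CARE at -193, and Hspa5 and Calr held an ERSE at -65 and -162. The windows of Sdf2l1 and Hspa1b held CCAAT boxes and none of the other elements. An ERSE was found in 7 of the 32 genes (Calr, Canx, Creld2, Dnajc3, Hsp90b1, Hspa5 and Pdia6), or 7 of their 37 windows, against 0.119% of all 32851 RefSeq windows of the same length. The elements were chosen as known ones of these responses, so these shares describe the windows and are no test. An ERSE-II was found in Herpud1 and Dnajb11, against 0.0365% of windows, and a CARE in Herpud1 and Chac1, against 0.895%. The heat shock element GAANNTTCNNGAA was found in Hspd1, Hspe1 and Hsph1, against 0.603% of windows. Hspd1 and Hspe1 lie head to head and share the region that holds it. The interferon-stimulated response element TTTCNNTTTC was found in Ppp1r15a, against 3.44%. The XBP1 element TGACGTGG was found in none of the 32, against 0.676%, and a CCAAT box in 25, against 37.4%. A match describes letters and is not a measured binding site, and a missing match says only that these letters are not in this window.

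Of the 38 genes, 37 passed the filter on low counts and entered edgeR's quasi-likelihood F test, which was fitted over 11002 genes, and Hspa1a did not. In the test of all 3 groups at once, 21 of the 37 genes were called at an adjusted p under 0.05, which is 56.8%, against 50.3% of all genes tested. With R848 against IFN-α, 14 were called, 8 higher and 6 lower, against a background of 37.4% of all genes called, 18.4% higher and 19.0% lower. In the combined group against R848, 9 were called, 5 higher and 4 lower, against 35.9%, 19.2% and 16.7%. In the combined group against IFN-α, 16 were called, 11 higher and 5 lower, against 33.2%, 18.5% and 14.7%. As shares of the 37 genes, the calls were 37.8%, 24.3% and 43.2% in the 3 comparisons; these shares were not tested against the background. Their median log2 fold changes were 0.05, -0.00 and 0.02, beside 0.02, -0.03 and -0.01 for all genes tested. Members were called in both directions in each comparison.

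The scaling of the libraries bears on direction in the comparisons of the combined group. On library totals alone, with no TMM factors, the median log2 fold change of all genes moved by -0.39 against R848 and by -0.31 against IFN-α. The split of the 37 genes became 2 higher and 22 lower against R848, and 4 higher and 13 lower against IFN-α. That of all genes went from 2112 higher and 1835 lower to 1173 and 4984, and from 2035 and 1617 to 1044 and 3768. With R848 against IFN-α the split was 9 higher and 4 lower on library totals and 10 and 5 with upper-quartile factors. With upper-quartile factors the median of all genes moved by -0.13 in the combined group against R848. The members there split into 5 higher and 7 lower and all genes into 1715 and 2861. Against IFN-α the members split into 10 higher and 6 lower and all genes into 1697 and 2091. With RLE size factors, a further scaling, the members split into 6 and 4 against R848 and 11 and 5 against IFN-α. All genes then split into 2175 and 1755, and 2058 and 1594. The directions below are on the TMM scale, in which most genes are taken as level. The comparisons share libraries: R848 and the combined group were each set against the same IFN-α libraries, so their values are given side by side and not as repeats of each other.

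**Figure D1:**
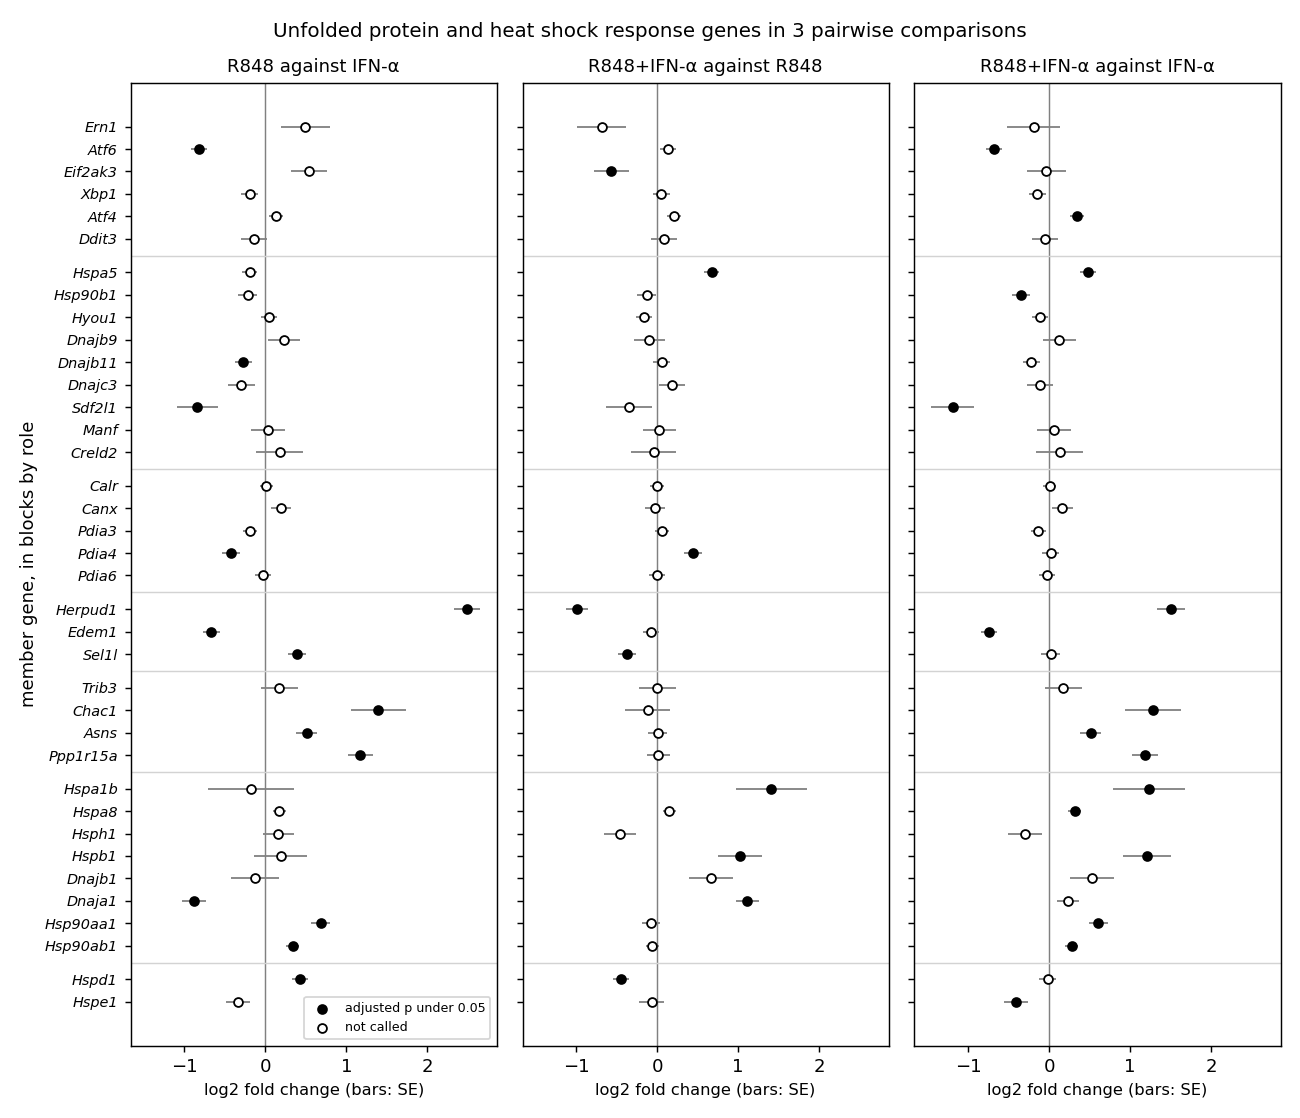
Log2 fold change (x axis, bars are SE) of the 37 tested genes (y axis, in blocks by role) in the 3 pairwise comparisons of 3 libraries each; filled points passed an adjusted p under 0.05. Herpud1 has the largest value with R848 against IFN-α at 2.49, Calr lies near 0 in each panel, and on library totals alone the splits of the combined group turn to 2 higher and 22 lower against R848 and 4 higher and 13 lower against IFN-α.

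All 3 genes of ER-associated degradation were called in at least 1 comparison and in the test of all 3 groups at once, which called 50.3% of all genes. Herpud1 had the largest absolute log2 fold change of the 37 genes tested. Herpud1 (ENSMUSG00000031770, chr8:94386438-94395377, + strand, GRCm38), a ubiquitin-like protein of the ER membrane that organizes the degradation complex, stood at 93.8, 83.5 and 66.0 CPM in the R848 libraries, 13.6, 15.2 and 14.3 CPM in the IFN-α libraries and 41.1, 43.6 and 38.6 CPM in the combined libraries. The 3 groups did not overlap: the R848 libraries were highest, the combined libraries intermediate and the IFN-α libraries lowest. Herpud1 was 5.63-fold higher with R848 than with IFN-α, a log2 fold change of 2.49 ± 0.16 (SE, adjusted p = 3.29e-14). The combined group was lower than R848, with a log2 fold change of -0.99 ± 0.13 (adjusted p = 5.01e-07), and higher than IFN-α by 1.50 ± 0.17 (adjusted p = 1.94e-08). These 3 calls held under each of the 19 alternative settings, which changed the scaling, filter, test, strand column or samples.

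Edem1, which trims mannose from misfolded glycoproteins and hands them to degradation, was highest with IFN-α. Its levels were 101, 114 and 111 CPM in the R848 libraries, 171, 158 and 188 CPM in the IFN-α libraries and 99.4, 95.4 and 112 CPM in the combined libraries. The IFN-α libraries lay above all others, and the R848 and combined libraries overlapped. Edem1 was lower than with IFN-α both with R848 (log2 fold change -0.67 ± 0.10, adjusted p = 2.60e-06) and in the combined group (-0.74 ± 0.10, adjusted p = 7.56e-07). The combined group and R848 differed by -0.08 ± 0.10 (adjusted p = 0.607), which on library totals alone passed the threshold at -0.47. Sel1l, the adaptor of the HRD1 ubiquitin ligase, had group means of 133 ± 9.45, 101 ± 13.0 and 102 ± 11.6 CPM. It was higher with R848 than with IFN-α by 0.39 ± 0.11 (log2, adjusted p = 0.00521) and lower in the combined group than with R848 (-0.37 ± 0.11, adjusted p = 0.00771). The former call was lost without IFN-α replicate 3 and the latter without combined replicate 2, at adjusted p = 0.0568 and 0.0735.

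**Figure D2:**
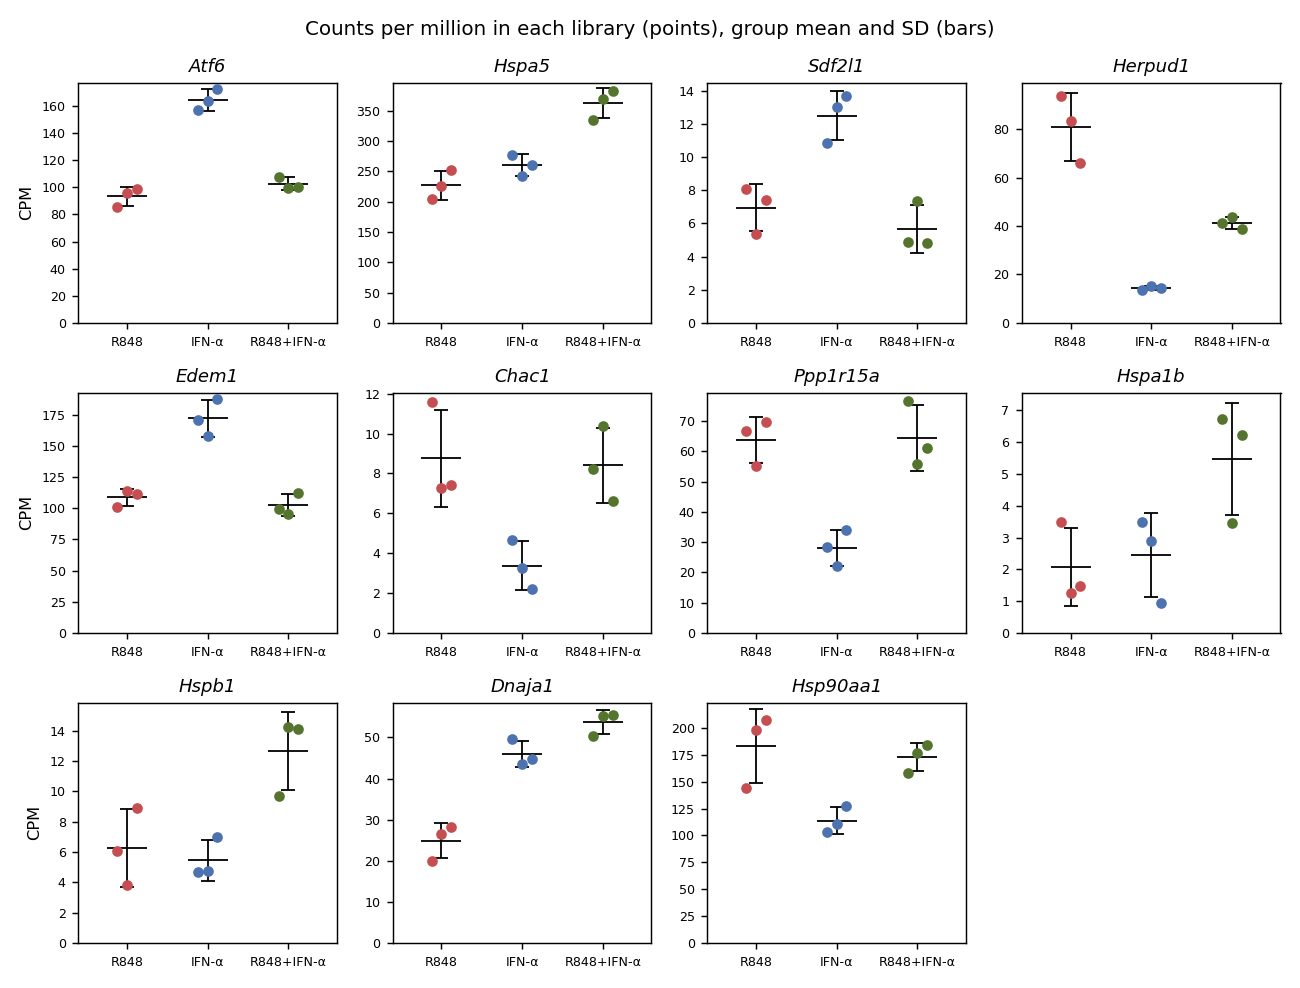
CPM (counts scaled for library size, y axis, linear, from 0) in each library (points) with group mean and SD (bars, n = 3) for the 11 genes called in at least 1 comparison with an absolute log2 fold change of at least 0.58. Herpud1 is ordered R848, combined, IFN-α without overlap, Atf6 and Edem1 are highest with IFN-α, and Hspa5 and Hspb1 are highest in the combined group.

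The outputs of the ATF4 and CHOP branch were lowest with IFN-α: 3 of the 4 genes were higher with R848 than with IFN-α, the same 3 were higher in the combined group than with IFN-α, and none was called between the combined group and R848. Of all genes tested, 18.4% were higher with R848 and 18.5% in the combined group than with IFN-α, and the 4 genes were not tested against these shares. Against IFN-α, 2 of these 3 calls of the combined group held on library totals alone, and in the same setting 2 genes became lower than with R848. Chac1, an enzyme that degrades glutathione, stood at 11.6, 7.28 and 7.40 CPM in the R848 libraries, 4.65, 3.26 and 2.23 CPM in the IFN-α libraries and 8.22, 10.4 and 6.64 CPM in the combined libraries. Each IFN-α library lay below every other library, and the R848 and combined libraries overlapped. Chac1 was higher than with IFN-α by 1.40 ± 0.34 (log2, adjusted p = 0.00122) with R848 and by 1.28 ± 0.34 (adjusted p = 0.00431) in the combined group.

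Ppp1r15a encodes GADD34, the subunit that directs protein phosphatase 1 to eIF2α. Its levels were 66.6, 55.1 and 69.6 CPM in the R848 libraries, 28.3, 22.1 and 34.0 CPM in the IFN-α libraries and 76.6, 55.7 and 60.9 CPM in the combined libraries. The IFN-α libraries were again below all others without overlap. The log2 fold changes were 1.17 ± 0.16 (adjusted p = 2.80e-07) for R848 and 1.18 ± 0.16 (adjusted p = 4.08e-07) for the combined group against IFN-α. The combined group and R848 differed by 0.01 ± 0.14, with a 95% interval of -0.28 to 0.30, and this difference turned to -0.37 (adjusted p = 0.0436) on library totals alone.

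Asns, asparagine synthetase, had means of 68.8 ± 6.44, 48.1 ± 6.66 and 69.2 ± 3.64 CPM. It was higher than with IFN-α by 0.51 ± 0.13 (log2, adjusted p = 0.00159) with R848 and by 0.51 ± 0.13 (adjusted p = 0.00202) in the combined group. The latter was 0.20 (adjusted p = 0.312) on library totals alone. Trib3, a pseudokinase that binds ATF4 and CHOP, had means of 10.6 ± 0.868, 9.35 ± 1.18 and 10.7 ± 0.864 CPM and was not called, with a 95% interval of -0.29 to 0.64 for R848 against IFN-α. The factors above these genes differed little in counts. Atf4 had means of 353 ± 9.31, 321 ± 24.5 and 408 ± 20.5 CPM. It was called in the combined group against IFN-α, at 0.34 ± 0.09 (log2, adjusted p = 0.00213), a call lost on library totals alone, where the value was 0.03. Ddit3, which encodes CHOP, had means of 26.2 ± 5.11, 28.9 ± 1.86 and 27.6 ± 1.31 CPM with no call, and its interval was -0.47 to 0.19 for R848 against IFN-α. Mars overlaps Ddit3 on the opposite strand, where 5.19% of the reads over it lay. ATF4 is known to be set largely at translation, which counts of its transcript do not measure.

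Among the sensors, the ATF6 gene was higher with IFN-α than with R848 or with both agents. Atf6 stood at 85.7, 95.5 and 98.9 CPM in the R848 libraries, 157, 163 and 173 CPM in the IFN-α libraries and 108, 99.3 and 100.1 CPM in the combined libraries. The IFN-α libraries lay above all others without overlap, and the combined libraries lay just above the R848 libraries. Atf6 was lower than with IFN-α both with R848 (log2 fold change -0.82 ± 0.10, adjusted p = 4.03e-08) and in the combined group (-0.68 ± 0.10, adjusted p = 1.56e-06), calls that held in each alternative setting. The combined group and R848 differed by 0.13 ± 0.10 (adjusted p = 0.321).

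Eif2ak3, which encodes PERK, had means of 15.3 ± 3.27, 10.5 ± 1.31 and 10.3 ± 1.35 CPM. It was lower in the combined group than with R848 (log2 fold change -0.57 ± 0.22, adjusted p = 0.0391), a call lost in 7 of the 19 settings, with adjusted p up to 0.200. Ern1, which encodes IRE1, had means of 8.62 ± 3.17, 6.24 ± 1.66 and 5.29 ± 0.497 CPM and no call, its value for the combined group against R848 being -0.69 ± 0.30 (adjusted p = 0.0769). Xbp1 had means of 104 ± 9.95, 119 ± 11.4 and 108 ± 7.34 CPM, with intervals of -0.41 to 0.02, -0.17 to 0.26 and -0.36 to 0.07 in the 3 comparisons and no call. Gene counts do not separate the Xbp1 form spliced by IRE1 from the unspliced form, nor cleaved ATF6 protein from the whole.

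Of the 9 ER chaperones of the Hsp70 and Hsp90 classes and their partners, Hspa5 was the only gene called higher in any comparison, on the TMM scale. Among all genes tested, 19.2% were higher in the combined group than with R848 and 18.5% than with IFN-α. The 9 genes were not tested against these shares. Hspa5 encodes BiP, the ER Hsp70 that binds unfolded chains and holds the sensors inactive. Its levels were 204, 226 and 252 CPM in the R848 libraries, 278, 242 and 260.5 CPM in the IFN-α libraries and 335, 370.1 and 382 CPM in the combined libraries. The combined libraries lay above all others without overlap, and the R848 and IFN-α libraries overlapped. Hspa5 was higher in the combined group than with R848 by 0.67 ± 0.09 (log2, adjusted p = 7.40e-07) and than with IFN-α by 0.48 ± 0.09 (adjusted p = 0.000136). On library totals alone the values were 0.28 (adjusted p = 0.068) and 0.17 (adjusted p = 0.296). With R848 against IFN-α it differed by -0.19 ± 0.09 (adjusted p = 0.11).

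Sdf2l1, a partner of the ER Hsp40 Dnajb11 in the BiP complex, went another way. It stood at 8.10, 5.38 and 7.40 CPM in the R848 libraries, 10.8, 13.0 and 13.7 CPM in the IFN-α libraries and 4.86, 7.34 and 4.83 CPM in the combined libraries. The IFN-α libraries were above all others and the R848 and combined libraries overlapped. Sdf2l1 was lower than with IFN-α both with R848 (log2 fold change -0.84 ± 0.25, adjusted p = 0.00842) and in the combined group (-1.19 ± 0.27, adjusted p = 0.000712). The former call was lost without R848 replicate 2 (-0.69, adjusted p = 0.0523). The combined group and R848 differed by -0.35 ± 0.29 (adjusted p = 0.365), and by -0.74 (adjusted p = 0.0336) on library totals alone.

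The other ER chaperones moved less. Hsp90b1, which encodes the ER Hsp90 GRP94, had means of 84.7 ± 7.78, 98.7 ± 10.8 and 77.3 ± 8.14 CPM. It was lower in the combined group than with IFN-α (log2 fold change -0.35 ± 0.12, adjusted p = 0.0188), a call lost without IFN-α replicate 1 or 3 or combined replicate 1, with adjusted p up to 0.119. Dnajb11 had means of 70.3 ± 1.45, 84.9 ± 3.32 and 73.1 ± 6.21 CPM. It was lower with R848 than with IFN-α (-0.27 ± 0.11, adjusted p = 0.0468), a call lost in 12 of the 19 settings. Hyou1, the nucleotide exchange factor of BiP, had means of 147 ± 13.0, 143 ± 8.09 and 131 ± 4.27 CPM. Dnajb9 and Dnajc3, further ER Hsp40 proteins, had means of 35.4 ± 11.2, 30.3 ± 4.97 and 33.7 ± 5.83 CPM and of 29.1 ± 4.95, 35.7 ± 1.76 and 33.0 ± 7.43 CPM. Manf and Creld2, ER proteins induced by stress, had means of 21.1 ± 6.00, 20.6 ± 1.88 and 22.3 ± 6.22 CPM and of 8.29 ± 1.22, 7.44 ± 2.31 and 7.76 ± 2.34 CPM. None of these 5 was called in any comparison, and their values against R848 in the combined group ran from -0.16 for Hyou1 to 0.18 for Dnajc3.

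The 5 lectin chaperones and disulfide isomerases had 1 call in each of the comparisons that involve the R848 group and none in the combined group against IFN-α. Among all genes tested, 37.4% were called with R848 against IFN-α, 35.9% in the combined group against R848 and 33.2% against IFN-α. The 5 genes were not tested against these shares. On library totals alone, 4 of the 5 became lower in the combined group than with R848, and Calr, Pdia3 and Pdia6 became lower than with IFN-α. Calr had means of 533 ± 40.2, 529 ± 5.35 and 532 ± 24.5 CPM, with intervals of -0.16 to 0.18 for R848 against IFN-α and -0.17 to 0.16 for the combined group against R848. Canx, its membrane-bound relative, had means of 45.2 ± 2.08, 39.5 ± 0.0295 and 44.4 ± 1.61 CPM. The isomerase genes Pdia3 and Pdia6 had means of 264 ± 19.9, 302 ± 12.6 and 276 ± 5.29 CPM and of 139.9 ± 14.2, 142 ± 6.48 and 139 ± 3.22 CPM, with no call. Pdia4 differed: it stood at 65.7, 74.0 and 85.0 CPM in the R848 libraries, 103, 97.8 and 100.5 CPM in the IFN-α libraries and 109, 104 and 94.3 CPM in the combined libraries. Its R848 libraries lay below all others and the IFN-α and combined libraries overlapped. Pdia4 was lower with R848 than with IFN-α (log2 fold change -0.42 ± 0.11, adjusted p = 0.0025) and higher in the combined group than with R848 by 0.44 ± 0.11 (adjusted p = 0.00184). Both calls were lost on library totals alone, where the values were -0.34 and 0.05.

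Of the 7 genes whose promoter window held an ERSE, Hspa5 was called higher in the combined group and Hsp90b1 lower against IFN-α, and Calr, Canx, Creld2, Dnajc3 and Pdia6 were not called in any comparison. Herpud1 and Chac1, the 2 genes with a CARE, were both higher with R848 and in the combined group than with IFN-α. Herpud1 alone of them was lower in the combined group than with R848. Ppp1r15a and Asns, whose windows held no CARE, were also called higher in both comparisons with IFN-α. Of the genes with an ERSE-II, Herpud1 was higher and Dnajb11 lower with R848 than with IFN-α. Of those with the heat shock element, Hspd1 was higher with R848 than in both other groups. Hspe1 was lower in the combined group than with IFN-α, and Hsph1 was not called. Among all genes tested, 37.4% were called with R848 against IFN-α, 35.9% in the combined group against R848 and 33.2% against IFN-α. A link between letters and levels was not tested.

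In the cytosol, calls among the heat shock genes in the combined group were for higher levels on the TMM scale: of the 8 tested, 3 were higher and none lower than with R848, and 5 were higher and none lower than with IFN-α, while on library totals alone these counts were 2 higher and 3 lower, and 1 higher and 1 lower. On the TMM scale, 19.2% and 18.5% of all genes tested were higher in these comparisons, and the 8 genes were not tested against these shares. Hspb1, the small heat shock protein called Hsp25 in mice, stood at 6.08, 3.80 and 8.89 CPM in the R848 libraries, 4.65, 4.71 and 6.996 CPM in the IFN-α libraries and 9.71, 14.3 and 14.1 CPM in the combined libraries. The combined libraries were above all others without overlap. It was higher than with R848 by 1.02 ± 0.28 (log2, adjusted p = 0.00404), with 0.63 (adjusted p = 0.0545) on library totals alone, and higher than with IFN-α by 1.21 ± 0.29 (adjusted p = 0.00155).

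Hspa1b, a heat-inducible Hsp70 gene counted at low levels, stood at 3.47, 1.27 and 1.48 CPM in the R848 libraries, 3.48, 2.90 and 0.954 CPM in the IFN-α libraries and 6.72, 3.46 and 6.23 CPM in the combined libraries. Combined replicates 1 and 3 lay above all other libraries, and combined replicate 2 lay level with R848 replicate 1 and IFN-α replicate 1. It was higher in the combined group than with R848 by 1.41 ± 0.44 (log2, adjusted p = 0.0114) and than with IFN-α by 1.24 ± 0.44 (adjusted p = 0.031). The former call was lost without R848 replicate 2 or 3 or combined replicate 1 or 3, with adjusted p up to 0.0779, and the latter in 6 settings, with adjusted p up to 0.210. Its neighbour and near-copy Hspa1a stood at 1.16, 2.21 and 1.48 CPM in the R848 libraries, 2.71, 2.53 and 1.59 CPM in the IFN-α libraries and 5.60, 2.59 and 5.03 CPM in the combined libraries and was not tested. The pair shares sequence with each other and with other genes: 56.3% of the 101-base stretches of Hspa1a and 49.7% of those of Hspa1b occur elsewhere in the annotated transcripts, so reads that STAR could not place uniquely are missing from both.

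Dnaja1, an Hsp40 partner of the cytosolic Hsp70 proteins, was lowest with R848. It stood at 20.0, 26.6 and 28.1 CPM in the R848 libraries, 49.6, 43.5 and 44.8 CPM in the IFN-α libraries and 50.4, 55.3 and 55.5 CPM in the combined libraries. The R848 libraries lay below all others by a wide margin, and the combined libraries lay just above the IFN-α libraries. Dnaja1 was lower with R848 than with IFN-α (log2 fold change -0.88 ± 0.15, adjusted p = 1.12e-05) and higher in the combined group than with R848 by 1.11 ± 0.14 (adjusted p = 2.02e-07), calls that held in each alternative setting. The combined group and IFN-α differed by 0.23 ± 0.14 (adjusted p = 0.205). Smu1 overlaps it on the opposite strand, and 12.7% of the reads over Dnaja1 were on that strand.

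The cytosolic Hsp90 genes were lowest with IFN-α on the TMM scale. On library totals alone, neither was called between the combined group and IFN-α. Hsp90aa1, the stress-inducible form, stood at 144, 198 and 208 CPM in the R848 libraries, 103, 111 and 128 CPM in the IFN-α libraries and 158, 177 and 184 CPM in the combined libraries. The IFN-α libraries were below all others and the R848 and combined libraries overlapped. Hsp90aa1 was higher than with IFN-α by 0.68 ± 0.12 (log2, adjusted p = 1.94e-05) with R848 and by 0.61 ± 0.12 (adjusted p = 0.000153) in the combined group, the latter being 0.29 (adjusted p = 0.117) on library totals alone. Hsp90ab1, the constitutive form, had means of 415 ± 30.8, 329 ± 12.4 and 398 ± 12.3 CPM. It was higher than with IFN-α by 0.34 ± 0.08 (adjusted p = 0.00175) with R848 and by 0.28 ± 0.08 (adjusted p = 0.0117) in the combined group, the latter being -0.03 and not called on library totals alone.

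Hspa8, the constitutive Hsp70, had means of 619 ± 36.6, 551 ± 23.8 and 687 ± 17.7 CPM. It was higher in the combined group than with IFN-α by 0.32 ± 0.08 (log2, adjusted p = 0.00246), with 0.01 on library totals alone. Dnajb1, the Hsp40 known as a direct target of heat shock factor 1, had means of 5.83 ± 1.28, 6.33 ± 0.463 and 9.18 ± 1.89 CPM and missed the threshold, at 0.66 ± 0.27 (adjusted p = 0.0581) for the combined group against R848. Hsph1, an Hsp110 exchange factor, had means of 18.03 ± 3.87, 16.1 ± 1.29 and 12.9 ± 1.12 CPM, with -0.46 ± 0.20 (adjusted p = 0.0688) in that comparison. Counts of several of these genes are uncertain because of near-identical copies: the share of 101-base stretches found elsewhere was 43.9% for Hspb1, 37.8% for Hsp90aa1, 28.4% for Hspa8 and 16.5% for Dnaja1.

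Astrocyte markers were also called higher in the combined group on the TMM scale. Among all genes tested, 19.2% were higher and 16.7% lower there than with R848, and 18.5% and 14.7% than with IFN-α. With R848 against IFN-α, 18.4% were higher and 19.0% lower. The marker lists were not tested against these shares. Of the 11 astrocyte markers, 9 were higher and none lower in the combined group than with R848, 6 were higher and none lower than with IFN-α, and 3 were higher and 4 lower with R848 than with IFN-α. On library totals alone the counts of the combined group were 3 higher and 1 lower, and 3 higher and 2 lower. Gfap had means of 897 ± 42.2, 749.6 ± 149.9 and 1418 ± 363 CPM and Aqp4 of 494 ± 123, 279.7 ± 16.0 and 1048 ± 157 CPM. Both had higher means with R848 than with IFN-α, unlike most of the list. There the 11 markers had a median log2 fold change of -0.34, from -1.28 to 0.82, and 4 were above 0. In the combined group against IFN-α their values ran from -0.46 to 1.90. Of the 9 tested fibroblast and pericyte markers, 2 and 3 were higher and none lower in the combined group against R848 and IFN-α. These counts were none higher and 2 lower, and 2 higher and none lower, on library totals alone. All 3 tested endothelial markers were higher in the combined group than with R848, also on library totals alone, and 1 was higher and 1 lower than with IFN-α, or 1 and 2 on library totals. With R848 against IFN-α none of the 3 was higher and 2 were lower, and 6 of the 9 listed were too low to test. Of the 5 tested neuronal markers, 1 and 2 were higher and none lower in the combined group against R848 and IFN-α, and of the 9 tested oligodendrocyte-lineage markers, 1 was higher than with R848 and 2 were lower than with IFN-α. Library totals turned these counts to 0 higher and 1 lower and 1 and 1 for the neuronal markers, and to 1 and 3 and 0 and 4 for the oligodendrocyte lineage. Of the 16 microglia and macrophage markers, 6 were higher and 4 lower in the combined group than with R848, 2 were higher and 9 lower than with IFN-α, and 2 were higher and 8 lower with R848 than with IFN-α. The counts of the combined group were 3 and 6, and 0 and 11, on library totals alone. The part of these cells in the levels of Hspb1, Hspa5 and the other genes that were higher in the combined group was not tested.

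The mitochondrial chaperonin genes, which fold proteins imported into the matrix, did not move together. Hspd1, which encodes Hsp60, had means of 135 ± 17.0, 101 ± 2.33 and 99.3 ± 3.23 CPM. It was higher with R848 than with IFN-α by 0.43 ± 0.10 (log2, adjusted p = 0.00118) and lower in the combined group than with R848 (-0.45 ± 0.10, adjusted p = 0.000844), calls that held in each alternative setting. Hspe1, which encodes the lid Hsp10 and is transcribed from the same region in the other direction, had means of 32.0 ± 4.87, 40.6 ± 4.67 and 30.6 ± 1.87 CPM. It was lower in the combined group than with IFN-α (log2 fold change -0.41 ± 0.15, adjusted p = 0.0345), a call lost in 5 settings with adjusted p up to 0.166. Shared 101-base stretches made up 23.6% of Hspd1 and 10.8% of Hspe1.

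Other genes of the same pathways were described by 11 lists of genes that are not among the 38. Each value printed for a gene of these lists is the log2 fold change ± SE of a called comparison. Among all genes tested, 18.4% were higher and 19.0% lower with R848 than with IFN-α. In the combined group these shares were 19.2% and 16.7% against R848, and 18.5% and 14.7% against IFN-α. The lists here and below were not tested against these shares. Of 21 tested further targets of ATF4, 8 were higher and 4 lower with R848 than with IFN-α, and 8 were higher and 1 lower in the combined group than with IFN-α, or 4 and 2 on library totals alone. Slc7a11, the cystine transporter that feeds glutathione synthesis, had means of 1778 ± 202, 68.7 ± 13.5 and 711 ± 29.5 CPM and log2 fold changes of 4.69 ± 0.12, -1.32 ± 0.10 and 3.36 ± 0.11 in the 3 comparisons in the order given above. Its order of groups was that of Herpud1. The stress-induced chromatin protein gene Nupr1 and the transcription factor gene Cebpb were higher with R848 than with IFN-α by 1.8 ± 0.25 and 1.62 ± 0.26, and in the combined group by 1.90 ± 0.25 and 1.90 ± 0.26. Atf3, a stress-induced repressor, had means of 159.9 ± 25.9, 341 ± 7.45 and 593 ± 43.6 CPM. It was higher in the combined group than with R848 by 1.89 ± 0.10. In that comparison 3 of the 21 were higher and 4 lower, among the latter the arginine transporter gene Slc7a1 at -0.67 ± 0.14. The 12 aminoacyl-tRNA synthetase genes, many of them ATF4 targets, had 3 higher and 1 lower with R848 than with IFN-α, 1 higher and 4 lower in the combined group than with R848, and 1 lower than with IFN-α. Wars, known as interferon-induced, was the gene lower with R848 than with IFN-α (-1.83 ± 0.11) and higher in the combined group than with R848 (1.69 ± 0.11), while Iars had 0.69 ± 0.12 and -0.84 ± 0.12 in these comparisons.

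Of the 8 genes for eIF2α kinases, their exchange factor and phosphatase, the largest difference was in Eif2ak2, which encodes the interferon-induced kinase PKR. Eif2ak2 had means of 8.54 ± 1.41, 113 ± 15.1 and 109 ± 9.92 CPM, with log2 fold changes of -3.73 ± 0.16 for R848 against IFN-α and 3.67 ± 0.16 for the combined group against R848. Ppp1r15b, the constitutive relative of Ppp1r15a, had means of 119 ± 1.93, 170.2 ± 18.1 and 306 ± 30.3 CPM. It was lower with R848 than with IFN-α (-0.52 ± 0.10) and higher in the combined group than with R848 by 1.36 ± 0.10 and than with IFN-α by 0.84 ± 0.10. Counts for the list were 1 higher and 2 lower with R848 against IFN-α, 2 and 2 in the combined group against R848, and 1 and 1 against IFN-α.

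Of 17 tested further ER folding enzymes, 6 were higher and 1 lower with R848 than with IFN-α, none was higher and 3 were lower in the combined group than with R848, and 1 was lower than with IFN-α. Among all genes tested, 18.4% were higher with R848 than with IFN-α and 16.7% were lower in the combined group than with R848. Ero1l, the oxidase that recharges disulfide isomerases, had means of 47.7 ± 4.36, 14.7 ± 1.76 and 16.5 ± 2.13 CPM. It was higher with R848 than with IFN-α by 1.69 ± 0.16 and lower in the combined group than with R848 (-1.50 ± 0.16). Erp29, an ER protein with a thioredoxin fold, had means of 59.7 ± 1.36, 146 ± 4.23 and 49.5 ± 1.19 CPM. It was lower than with IFN-α both with R848 (-1.29 ± 0.10) and in the combined group (-1.56 ± 0.10). Of 16 tested further ERAD genes, 7 were higher and 2 lower with R848 than with IFN-α, 1 was higher and 6 lower in the combined group than with R848, and 2 were higher and 3 lower than with IFN-α. The extraction cofactor gene Nploc4 was higher with R848 than with IFN-α by 1.00 ± 0.10, and Edem2, a relative of Edem1, was lower (-0.80 ± 0.13). Syvn1, which encodes the ligase HRD1, was higher in the combined group than with R848 by 0.98 ± 0.26. The 15 tested genes of ER translocation had 1 call with R848 against IFN-α, 2 in the combined group against R848 and 3 against IFN-α. Of the 11 tested further regulators of the response, 4 were higher and 4 lower with R848 than with IFN-α, 3 and 2 in the combined group against R848, and 3 and 3 against IFN-α. The pro-death gene Bbc3 was lower than with IFN-α both with R848 (-1.67 ± 0.36) and in the combined group (-1.70 ± 0.36). Tmbim6, an ER membrane protein that limits cell death, was higher in the combined group than with R848 by 0.68 ± 0.08.

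Among 18 tested further heat shock factors and their targets, 8 were higher and 1 lower in the combined group than with R848, and 5 were higher and none lower than with IFN-α, while on library totals alone the counts were 2 and 4, and 3 and 2. On the TMM scale, 19.2% and 18.5% of all genes tested were higher in these comparisons, and the list was not tested against these shares. Dnaja2, the close relative of Dnaja1, had means of 149 ± 21.9, 222 ± 15.6 and 414 ± 4.03 CPM. It was higher in the combined group than with R848 by 1.47 ± 0.10 and than with IFN-α by 0.90 ± 0.10. Cacybp, a cochaperone of ubiquitin ligases, followed Dnaja1 in order, at -0.90 ± 0.16 for R848 against IFN-α and 0.99 ± 0.16 for the combined group against R848. Cryab, a small heat shock protein that astrocytes also express, had means of 16.6 ± 4.89, 19.1 ± 1.35 and 28.4 ± 4.11 CPM and was higher in the combined group than with R848 by 0.74 ± 0.19, a call lost on library totals alone. With R848 against IFN-α, 4 of the 18 were higher and 4 lower, among the former Hsf1 itself at 0.68 ± 0.19, a call lost without R848 replicate 1. Of 11 tested Hsp70 and Hsp90 cochaperones, 2 were higher with R848 than with IFN-α, 2 were lower in the combined group than with R848, and 1 was higher and 1 lower than with IFN-α. Stip1, which links Hsp70 to Hsp90, had means of 203 ± 4.86, 83.4 ± 7.81 and 145 ± 10.6 CPM, with log2 fold changes of 1.29 ± 0.10, -0.49 ± 0.10 and 0.80 ± 0.10 in the 3 comparisons. Its order of groups was that of Herpud1. Of the 8 subunits of the TRiC chaperonin, which folds actin and tubulin, 4 were higher with R848 than with IFN-α, 1 was higher and 1 lower in the combined group than with R848, and 1 was higher than with IFN-α. Of 12 mitochondrial chaperones and proteases, 2 were higher and 2 lower with R848 than with IFN-α, 1 was higher and 5 lower in the combined group than with R848, and 1 was lower than with IFN-α.

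On library totals alone, these lists turned towards lower levels in the combined group, as did all genes tested. The latter then had 1173 higher and 4984 lower against R848, and 1044 and 3768 against IFN-α. Against R848 the higher and lower calls were then 1 and 11 for the synthetases, 2 and 6 for the eIF2α genes, 0 and 11 for the folding enzymes, 1 and 12 for ERAD, 0 and 8 for translocation and 1 and 5 for the regulators. They were 1 and 8 for the ATF4 targets, 0 and 10 for the cochaperones, 0 and 6 for TRiC and 0 and 9 for the mitochondrial genes. Against IFN-α, lists with more lower than higher calls in that setting were the eIF2α genes (1 and 6), ERAD (0 and 6), translocation (0 and 5), the cochaperones (1 and 4), the regulators (1 and 4) and TRiC (0 and 1), besides the synthetases (0 and 4), the folding enzymes (0 and 5) and the mitochondrial genes (0 and 4).

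**Figure D3:**
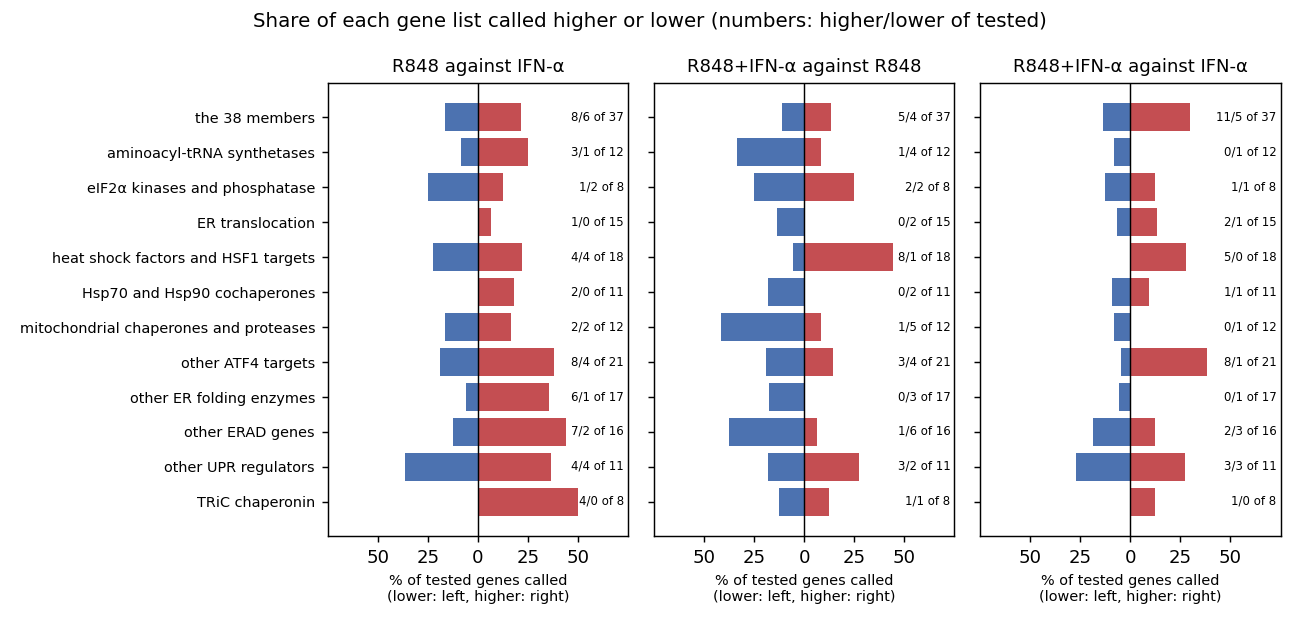
Percent of the tested genes of each list (y axis) called higher (right, red) or lower (left, blue) at an adjusted p under 0.05 in the 3 comparisons (x axis), with the counts higher/lower of tested printed at the right. Heat shock factor targets have 8 higher and 1 lower in the combined group against R848, which becomes 2 and 4 on library totals alone, and further ATF4 targets have 8 higher and 1 lower against IFN-α, which becomes 4 and 2. Among all genes tested, 19.2% and 18.5% are higher in these comparisons of the combined group.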

How the data were processed

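RNA from 9 libraries (3 groups of 3, by their titles) was sequenced in paired reads of 101 cycles. The authors deposited raw, whole-number counts per gene as unstranded, forward and reverse columns; per the submitters' processing notes reads were handled with STAR 2.5.1, Trimmomatic 0.33, CASAVA 1.8.2 and, with no version, DESeq2, on build mm10. For the annotation, no name was given in the labels. The reverse-strand counts were used, because forward-strand counts made up 1.09 to 1.50% of both strands. Rows that name no gene stayed out of totals and tests: reads in no gene made up 39.3 to 44.4% of read pairs, unmapped ones 19.8 to 26.3% and multi-mapping ones 7.22 to 8.51%. The ribosomal transcript Rn45s held 13.3 to 26.1% of gene counts.

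Genes were kept by edgeR's filterByExpr (minimum count 10, minimum total 15), library sizes were recomputed over the 11002 genes kept, a choice made after the data were seen, and TMM factors were applied. A group-means model over all 9 libraries was tested with the quasi-likelihood F test in edgeR 4.0.16 (limma 3.58.1, R 4.3.3), with Benjamini-Hochberg adjustment over all genes tested; a gene was called at an adjusted p under 0.05. The SE was taken as the size of the log2 fold change over the square root of its F statistic, and intervals are at 95%. The common biological coefficient of variation was 0.0955. The scripts were tested on simulated data. Genes called with an absolute log2 fold change of at least 0.58 are given per library, as are Pdia4 and Hspa1a, chosen after their values were seen; of each further list, up to 3 called genes per comparison with the largest absolute change could be named. The 38 members, the further lists and the motifs were chosen with earlier results of these data known. DESeq2 1.42.0 was an alternative test. Positions, exon lengths and shared stretches of 101 bases are from GENCODE mouse release M21 (GRCm38), and promoter windows are from RefSeq (GRCm38.p6). The labels do not say whether replicates are separate cultures, so the p-values reflect spread among the libraries at hand, some or all of which can be technical. Replicate pairs differed beyond sampling noise, with chi-square per degree of freedom of 1.94 to 12.1 over genes with at least 20 summed counts. Pairs that held replicate 1 gave 7.03 to 12.1, and pairs of replicates 2 and 3 gave 1.94 to 2.98. Rn45s was among these genes. Its share of gene counts in replicates 1, 2 and 3 was 22.0, 16.9 and 14.8% with R848. It was 26.1, 16.5 and 16.0% with IFN-α, and 13.3, 21.0 and 19.8% in the combined group. The part of Rn45s in the chi-square was not tested.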

Additional observations from a re-analysis of the deposited data

How the results depend on the processing

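Counts and members' values were recomputed under 19 alternatives, though 7 members with few counts had no value in 1 or 2 of them: other scaling, low-count filters, DESeq2, only the 2 groups compared, unstranded counts, a replicate block, library sizes over all genes (added after the data were seen) and leaving out each library. Of 613 values of the 11 genes given per library, 579 kept direction and side of the threshold, 15 lost a call, 4 gained one and 15 changed sign, all of them values that were not called as reported. For the combined group against R848, library totals alone gave -0.37 for Ppp1r15a, now past the threshold, and -0.26 for Atf6, upper-quartile factors gave -0.12 and -0.00075, and the stricter filter gave -0.00038 for Ppp1r15a. For Dnaja1 in the combined group against IFN-α, library totals alone gave -0.081. Leaving out libraries, values ran from -0.27 to 0.15 for Chac1, -0.12 to 0.094 for Ppp1r15a and -0.21 to 0.024 for Hsp90aa1 in the combined group against R848, and from -0.78 to 0.16 for Hspa1b and -0.15 to 0.44 for Hspb1 with R848 against IFN-α. All 14 calls with R848 against IFN-α kept their sign, and 10 held in every setting that gave a value, against 3 of 9 and 7 of 16 for the combined group against R848 and IFN-α. On library totals alone, 6157 genes were called in the combined group against R848, the members' calls there were 2 higher and 22 lower, and against IFN-α 4 higher and 13 lower. Against R848, the stricter filter of 30 counts left 3 higher, and upper-quartile factors gave 7 lower. Leaving out libraries, members called higher against R848 ran from 4 to 8, the latter without R848 replicate 1, and members called lower against IFN-α from 3 to 5, the former without IFN-α replicate 1. The cause of these changes was not tested. Library sizes over all genes changed no count of members.

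Same-numbered libraries did not deviate together over the genes tested: correlations of their deviations from group means ran from -0.10 to 0.06 over 9 pairs, none over 0.1. By chi-square, taken over genes that include Rn45s, replicate 1 was nevertheless the library least like the others in each group. The part of Rn45s in this was not tested. With the replicate block, 4147, 3995 and 3701 genes were called in the 3 comparisons, against 4119, 3947 and 3652, and members split into 8 higher and 5 lower, 5 and 3, and 11 and 5. Depth limits the members with few counts, among them Hspa1a, Hspa1b, Ern1 and Chac1, the last with 7 to 12 counts in the IFN-α libraries.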
